A study of Mus musculus with 3 samples.

Results

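The neutrophil-attracting CXC chemokines and their receptors form a family of 8 genes in this account: the 6 ligand genes Cxcl1, Cxcl2, Cxcl3, Cxcl5, Ppbp and Cxcl15, and the receptor genes Cxcr1 and Cxcr2. They were taken by name from a count table of 53342 genes in lungs of mice, and all 8 passed the filter on low counts that left 17636 genes for testing. The 3 samples, called mouse 4, 5 and 6 after the last digit of their labels, came from male C57Bl/6 mice whose age is not given in the sources used here. Every mouse was challenged by the trachea with microparticles of Mycobacterium abscessus, in a volume of 50 µL that matched 1000000 bacteria, to make lung granulomas form. Every mouse then received MIA-602, which blocks the receptor for growth hormone-releasing hormone, at 5 µg a day beneath the skin for 3 weeks. These samples are 1 group, and lungs without challenge or without MIA-602 were not analysed here, so the values give levels and differences between mice, not an effect of either agent. The series asks how MIA-602 acts in a model of sarcoidosis.

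CXC chemokines carry a glutamate-leucine-arginine motif ahead of their first cysteines when they attract neutrophils, and they act through the G protein-coupled receptors Cxcr1 and Cxcr2 on the neutrophil surface. In mice Cxcr2 is the main receptor for this traffic. Macrophages, epithelium and stroma make Cxcl1 (KC), Cxcl2 (MIP-2) and Cxcl3 in response to microbial products and to cytokines such as interleukin-1, tumour necrosis factor and interleukin-17, through the transcription factor NF-kappaB. Cxcl5 (LIX) is made largely by epithelium in the lung, Ppbp is stored in platelets as the precursor of the neutrophil attractant NAP-2, and Cxcl15 (lungkine) is a product of lung epithelium. Cxcl15 was included as a lung chemokine and is not taken here as a ligand of Cxcr1 or Cxcr2.

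The 6 ligand genes lie together on chromosome 5 (build mm10, positions 90759360 to 90905938, 146579 bases), in the order Cxcl5, Ppbp, Cxcl3, Cxcl15, Cxcl1 and Cxcl2, all on the plus strand. The receptors lie on chromosome 1 within 40643 bases, Cxcr2 (74153989 to 74161246) on the plus strand and Cxcr1 (74191785 to 74194631) on the minus strand. All are protein-coding genes. Only Cxcl15 shares its span with another annotated gene, the small Gm24322 on the opposite strand, which had 0 counts in every library. Neighbouring genes can differ in their control sequences, so the 100 bases before the RefSeq start site (GRCm38.p6, plus strand) are shown for the ligands matched in the promoter table. They were read from chr5:90891145-90891244 for Cxcl1, chr5:90903799-90903898 for Cxcl2, chr5:90786001-90786100 for Cxcl3, chr5:90794434-90794533 for Cxcl15 and chr5:90768418-90768517 for Ppbp. Capitals mark GGGAATTTCC, the NF-kappaB-type sequence read from the Cxcl1 promoter by its match to the looser NF-kappaB consensus, and the TATA motif TATAAA.
Cxcl1: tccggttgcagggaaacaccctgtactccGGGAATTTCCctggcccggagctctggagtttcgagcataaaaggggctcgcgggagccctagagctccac
Cxcl2: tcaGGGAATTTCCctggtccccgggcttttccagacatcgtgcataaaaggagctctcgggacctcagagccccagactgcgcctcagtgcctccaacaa
Cxcl3: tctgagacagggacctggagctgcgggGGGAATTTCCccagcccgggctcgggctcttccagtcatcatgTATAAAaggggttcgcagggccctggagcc
Cxcl15: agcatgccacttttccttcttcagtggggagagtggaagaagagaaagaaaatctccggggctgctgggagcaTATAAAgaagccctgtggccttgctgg
Ppbp: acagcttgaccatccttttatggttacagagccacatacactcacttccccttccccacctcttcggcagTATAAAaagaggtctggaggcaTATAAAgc

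The motif GGGAATTTCC stood in the promoter windows of Cxcl1, Cxcl2 and Cxcl3, with its first base at positions −71, −97 and −73 from the start. Windows here run from 250 bases before to 50 bases after the start and were searched on both strands. Its presence in Cxcl1 follows from that choice. In all, 29 of 32851 windows held it (0.088%). Neither it nor the looser NF-kappaB consensus (4.51% of windows) was found in the windows of Cxcl15, Ppbp, Cxcr1 or Cxcr2, which says only that these letters are not in that stretch. TATAAA was in the windows of Cxcl15 (−27), Cxcl3 (−30) and Ppbp (−30 and −8), and in 13.6% of all windows.

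The pentamer AUUUA, written ATTTA in the reference and known from short-lived cytokine messages, occurred 7, 11 and 5 times in the 3′ untranslated regions of Cxcl1, Cxcl2 and Cxcl3. That is 11.8, 7.36 and 7.75 per kilobase, above 99.7%, 98.0% and 98.4% of the 14201 filtered genes with a region of at least 100 bases, whose median was 1.31. Cxcl5 had 5 pentamers (4.50 per kilobase), while Cxcl15, Ppbp and Cxcr2 had 2, 1 and 2 (1.26, 1.52 and 1.10 per kilobase), near the median. Pairs of pentamers that overlap by 1 base occurred in Cxcl1 and Cxcl2 alone among the 8 genes, 2 and 4 times, and in 6.32% of the 14201 genes.

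**Figure D1:**
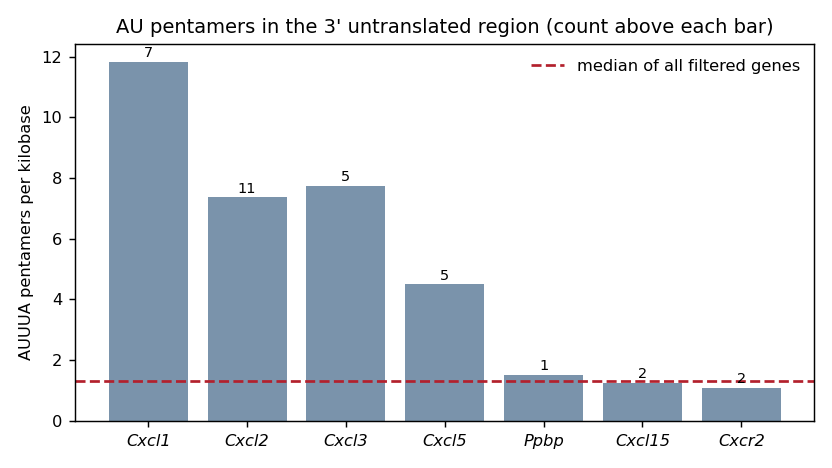
AUUUA pentamers per kilobase of 3′ untranslated region in 7 of the genes (bars, with the number of pentamers above each) and the median of 14201 genes (dashed line). Cxcl1, Cxcl2 and Cxcl3 stand at 7.36 to 11.8 and Cxcl5 at 4.50, while Ppbp, Cxcl15 and Cxcr2 lie near the median of 1.31; Cxcr1, with an annotated region of 21 bases, is not drawn.

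The lung chemokine Cxcl15 had by far the most counts. Levels are CPM, counts per 1000000 counts of the library after TMM scaling, for mice 4, 5 and 6 in that order, and errors are SD over 3 mice. Cxcl15 (ENSMUSG00000029375) had 41090, 45431 and 33574 counts, or 954, 1256 and 1059 CPM, and its mean of 1089.7 ± 154 (n = 3) ranked 59 among all tested genes, with no correction for length. It was lowest in mouse 4 and highest in mouse 5.

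Cxcl5 (ENSMUSG00000029371), the epithelial ligand, had 1140, 463 and 494 counts, or 26.5, 12.8 and 15.6 CPM. Mouse 4 stood above the others. Cxcl2 (ENSMUSG00000058427) had 17.5, 11.1 and 13.0 CPM, again with mouse 4 highest. Cxcl1 (ENSMUSG00000029380) had 10.5, 8.43 and 10.6 CPM, with mouse 5 below the other two. Cxcl3 (ENSMUSG00000029379) was almost level at 10.4, 11.03 and 10.8 CPM from 449, 399 and 343 counts. Ppbp (ENSMUSG00000029372), the platelet gene, had 6.13, 16.7 and 7.44 CPM from 264, 603 and 236 counts, so that mouse 5 stood alone.

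The receptors differed in how they varied. Cxcr2 (ENSMUSG00000026180) had 471, 329 and 190 counts, or 10.9, 9.10 and 5.99 CPM, highest in mouse 4 and lowest in mouse 6. Cxcr1 (ENSMUSG00000048480) had 122, 90 and 96 counts, or 2.83, 2.49 and 3.03 CPM. At this depth the 95% exact Poisson interval of Cxcr1 was 2.35 to 3.38 CPM in mouse 4 and 2.45 to 3.70 in mouse 6, and the interval of mouse 5 reached 3.06, so that all overlapped. Intervals cover counting error only.

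**Figure D2:**
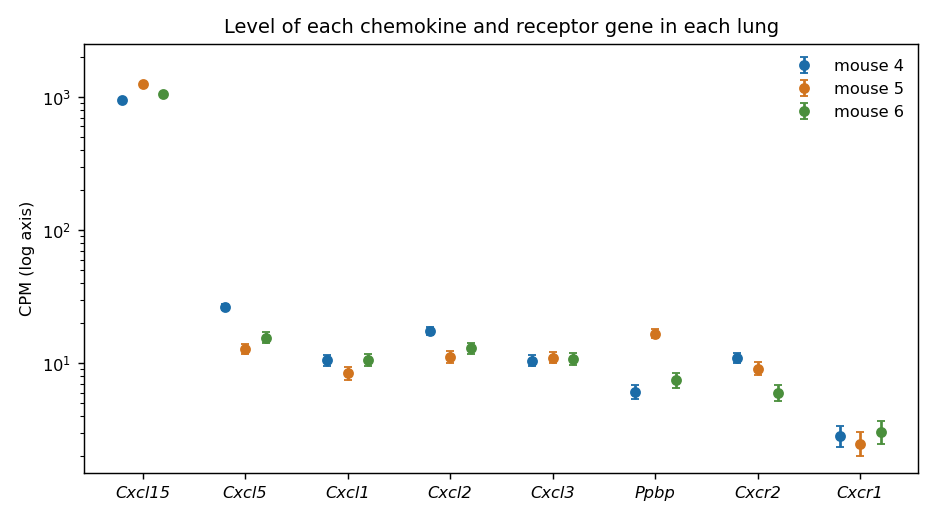
CPM of the 8 genes on a log axis in mouse 4 (blue), mouse 5 (orange) and mouse 6 (green), with bars for the 95% exact Poisson interval of each count. Cxcl15 lies at 954 to 1256 CPM and the others between 2.49 and 26.5; Cxcl5 is highest in mouse 4, Ppbp in mouse 5 and Cxcr2 lowest in mouse 6.

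Levels of different genes were compared per kilobase of annotated exon. Cxcl15 stood at 512 ± 72.2 CPM per kilobase, above 99.6% of the tested genes. Cxcl5 followed at 9.81 ± 3.88, Ppbp at 9.31 ± 5.31, Cxcl2 at 6.70 ± 1.58, Cxcl1 at 5.25 ± 0.652 and Cxcl3 at 3.08 ± 0.0886. The receptors closed the order, Cxcr2 at 2.85 ± 0.820 and Cxcr1 at 1.87 ± 0.183 CPM per kilobase. Of the 7 neighbouring pairs in this order, 3 kept their direction in all 3 mice, namely Cxcl15 over Cxcl5, Cxcl2 over Cxcl1 and Cxcl1 over Cxcl3. The first of these gaps was 5.69 ± 0.70 on the log2(CPM per kilobase + 0.5) scale, the others 0.31 ± 0.21 and 0.68 ± 0.20. Flipping signs over the mice, an exact two-sided test, gave p = 0.25 for each of the 3 (0.583 after Benjamini-Hochberg adjustment over 7 pairs), the smallest p that 3 mice allow, so no pair could pass. The order within Cxcl5, Ppbp and Cxcl2 did not hold beyond the spread between mice.

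The order of the lesser ligands depended on the gene length used. The annotation gives Cxcl3 and Cxcl1 transcripts that keep introns, so their exons cover 3498 and 1875 bases, while the longest protein-coding transcripts have 1016 and 953. With the latter lengths, an alternative chosen after the data were seen, Cxcl3 rose from 3.08 to 10.6 ± 0.305 CPM per kilobase and Cxcl1 from 5.25 to 10.3 ± 1.28, which put both above Ppbp (9.31) and Cxcl2 (7.46 ± 1.75). The annotated exons of Cxcl2 also cover its whole span, 2068 bases, but its longest protein-coding transcript has 1859, so its length changed little. The place of Cxcl2 below Cxcl1 and Cxcl3 on that scale therefore depends on the annotation. Cxcl15 and Cxcl5 kept the first places and Cxcr2 and Cxcr1 the last.

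**Figure D3:**
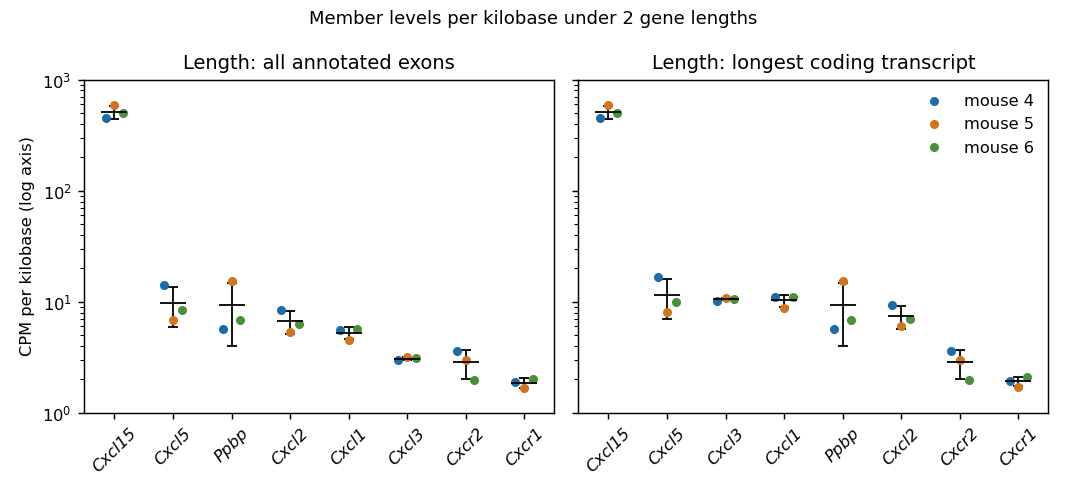
CPM per kilobase (log axis) of the 8 genes, scaled by the length of all annotated exons (left) or of the longest protein-coding transcript (right); points are mice and bars the mean and SD of 3 mice. Cxcl3 moves from 3.08 to 10.6 and Cxcl1 from 5.25 to 10.3, and Cxcl15 stays at 512.

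Cxcl15 made up nearly all of the summed messages of the 6 ligand genes. Its receptor was not examined, so this is not a share among ligands of Cxcr1 and Cxcr2. Cxcl15 held 92.4%, 94.4% and 94.3% of the summed level of the 6 ligands per kilobase in mice 4, 5 and 6 (93.7% ± 1.11). With coding transcript lengths the share was 91.1% ± 1.52. Among the other 5 ligands, the leading gene was not the same in every lung. Cxcl5 held 38.5%, 19.5% and 27.7% of their summed level, and Ppbp 15.3%, 43.6% and 22.7%. Cxcl5 led in mice 4 and 6 and Ppbp in mouse 5. With coding transcript lengths Cxcl1 (24.4%) and Cxcl3 (23.4%) came before Cxcl5 (21.8%) in mouse 6, and the leaders of mice 4 and 5 were unaltered.

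**Figure D4:**
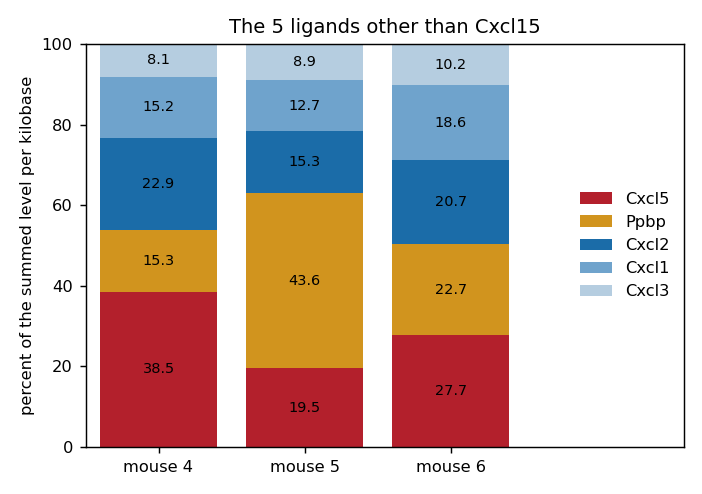
Share of each ligand in the summed CPM per kilobase of annotated exon of the 5 ligands other than Cxcl15, by mouse. Cxcl5 is the largest part in mouse 4 (38.5%) and Ppbp in mouse 5 (43.6%).

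No member passed a test for spread between mice beyond that of genes at its level. edgeR's quasi-likelihood dispersion of each gene was set against the fitted trend, and 0 of 8 members passed at a Benjamini-Hochberg adjusted p of 0.05, as did 0 of 17636 genes (0%). Because no gene at all passed with 3 mice, failing the test does not show that the spread of a member was ordinary. At an unadjusted threshold of 0.05 the edgeR test passed 867 genes (4.92%), among them Ppbp and Cxcl5 (adjusted p = 0.955 for both). Without the filter on low counts edgeR called Ppbp and Cxcl5 (adjusted p = 0.000257 and 0.00298), among 2.05% of 30751 genes. The prior degrees of freedom, the weight given to the trend, were infinite in that run and 3.88 with the filter. The log2 ratios of Ppbp and Cxcl5 to the trend were no larger, at 3.73 and 3.38 against 4.05 and 3.75 with the filter. Without mouse 4 edgeR called 0 members and 0.0732% of genes. DESeq2 marked 104 genes (0.59%) as dispersion outliers and no member. In CPM, Ppbp and Cxcl5 had coefficients of variation of 57.0% and 39.5%, Cxcl3 of 2.88%, and the median tested gene 11.2%.

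The mice were then compared in pairs by an exact two-sided binomial test on the counts of each pair of libraries, adjusted over all 17636 genes. This test compares libraries, not conditions, and many genes pass it. Between mice 4 and 5 it called 6 of the 8 members, against 50.4% of all genes. Higher in mouse 4 were Cxcl5, Cxcl2, Cxcl1 and Cxcr2 (4 of 8, against 25.5% of genes), and lower were Ppbp and Cxcl15 (2 of 8, against 24.9%). Between mice 4 and 6 it called 4 of 8, against 38.9%. Cxcl5, Cxcl2 and Cxcr2 were higher in mouse 4 (20.6% of genes) and Cxcl15 lower (18.3%). Between mice 5 and 6 it called 5 of 8, against 42.3%. Cxcl15, Ppbp and Cxcr2 were higher in mouse 5 (21.5%), and Cxcl5 and Cxcl1 lower (20.8%). Cxcl3 and Cxcr1 passed in none of the 3 pairs. With a difference of at least 1.5-fold as well, 3, 2 and 2 members remained in the 3 pairs, where 12.9%, 7.69% and 6.67% of genes did.

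Cxcl15 was lowest in mouse 4, as were most markers of alveolar type 2 cells and all of club and ciliated cells. It was 1.32-fold higher in mouse 5 than in mouse 4 and 1.11-fold higher in mouse 6 than in mouse 4. All 6 alveolar type 2 cell markers were lower in mouse 4 than in mouse 5 by the same test, and 5 of 6 lower than in mouse 6. Their summed level was 22323, 30044 and 26964 CPM in mice 4, 5 and 6. Sftpc, the surfactant protein C gene, stood at 14532, 20176 and 18404 CPM, and Cxcl15 made 0.0656, 0.0623 and 0.0575 of its CPM. The 5 club cell markers were all called lower in mouse 4 in both pairs, with summed levels of 9836, 25687 and 22752 CPM. Cxcl15 made 0.125, 0.0579 and 0.0554 of the CPM of Scgb1a1, the club cell secretoglobin. As a description, the log2 ratio of Cxcl15 to each marker was given an SD over the 3 mice. That SD ran from 0.02 to 0.13 over the 6 alveolar type 2 genes and from 0.057 to 0.275 over 5 alveolar type 1 genes. It ran from 0.075 to 0.66 over the 5 club cell genes and from 0.04 to 0.28 over the 6 ciliated cell genes. The ranges overlapped. Tppp3, a ciliated cell gene, Aqp5, an alveolar type 1 gene, and Hp, in the club cell list, had SDs of 0.04, 0.057 and 0.075, below the 0.10 of Sftpc. In bulk tissue, fewer cells of a type and less RNA per cell cannot be told apart, and the part of cell makeup in the Cxcl15 difference was not tested.

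Cxcl5 was 2.07-fold higher in mouse 4 than in mouse 5 (exact binomial test, adjusted p = 1.58e-41) and 1.70-fold higher than in mouse 6 (adjusted p = 1.26e-22). Between the other mice it was 1.22-fold lower in mouse 5 than in mouse 6 (exact binomial test, adjusted p = 0.00828). All 4 squamous epithelium keratins and all 6 skeletal muscle genes were called higher in mouse 4 than in either other mouse. The keratins summed to 341, 126 and 109.6 CPM in mice 4, 5 and 6, led by Krt13 and Krt5, and the muscle genes to 4954, 1825 and 1556 CPM. Between mice 5 and 6 they went the other way from Cxcl5, with 6 of 6 muscle genes and 3 of 4 keratins called higher in mouse 5. No marker of either list was at 0. Per CPM of Krt5, the keratin of basal cells, Cxcl5 had 0.299, 0.376 and 0.554. The keratin differed more than Cxcl5 did between mouse 4 and each other mouse. Between mice 5 and 6 Krt5 and Cxcl5 differed 1.21-fold and 1.22-fold, in opposite directions. The part of squamous epithelium and muscle in the Cxcl5 difference was not tested.

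Cxcl2, an early neutrophil attractant of macrophages, was 1.57-fold higher in mouse 4 than in mouse 5 (exact binomial test, adjusted p = 9.59e-13) and 1.35-fold higher than in mouse 6 (adjusted p = 6.32e-06). Cxcl1, its relative, was 1.25-fold lower in mouse 5 than in both others (adjusted p = 0.0069 and 0.0142) and level between mice 4 and 6 (10.5 and 10.6 CPM, adjusted p = 1). Cxcl3 differed by at most 1.06-fold in any pair (adjusted p from 0.547 to 0.898). Of the monocyte and macrophage markers, mouse 4 exceeded mouse 5 for 6 of 7 and mouse 6 for 6 of 7, with summed levels of 2328, 1447 and 1795 CPM in mice 4, 5 and 6. Of 6 alveolar macrophage markers, 1 was called higher and 3 lower in mouse 4 than in mouse 5, and 1 higher and 4 lower than in mouse 6. The part of either cell type in the Cxcl2 difference was not tested. Cxcl2 and Cxcl3 share 126 sequences of 50 bases, 5.84% of those in Cxcl2 and 3.51% of those in Cxcl3, so a small part of their reads could have been split between them. Cxcr2 shares 203 such sequences (6.68% of its own) with genes outside the family, the largest percentage among the members.

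Ppbp was 2.72-fold higher in mouse 5 than in mouse 4 (exact binomial test, adjusted p = 2.43e-44) and 2.24-fold higher than in mouse 6 (adjusted p = 1.06e-26). The other platelet genes had the same high mouse. All 8 markers of platelets and megakaryocytes were highest in mouse 5, 7 of them called above mouse 4 and 5 above mouse 6, with summed levels of 26.7, 48.9 and 31.4 CPM. Itga2b, the platelet integrin chain, had 9.22, 18.9 and 11.9 CPM. Pf4, the platelet chemokine gene next to Ppbp, spread far less, at 8.03, 9.71 and 9.24 CPM. It was 1.21-fold lower in mouse 4 than in mouse 5 (adjusted p = 0.0293) and did not pass between mice 5 and 6 (adjusted p = 0.694). The difference between the 2 genes was not tested. For all 5 red cell genes mouse 5 was called above both others, with sums of 1468, 3199 and 1811 CPM, and the part of blood in the Ppbp difference was not tested.

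Cxcr2 was 1.82-fold higher in mouse 4 than in mouse 6 (exact binomial test, adjusted p = 7.26e-12), 1.52-fold higher in mouse 5 than in mouse 6 (adjusted p = 2.11e-05) and 1.20-fold higher in mouse 4 than in mouse 5 (adjusted p = 0.0245). Per kilobase it exceeded Cxcr1 1.89-fold and 1.79-fold in mice 4 and 5, but stood at 0.968 of Cxcr1 in mouse 6. The log2 ratio was 0.47 ± 0.44, with Cxcr2 above Cxcr1 in 2 of 3 mice (exact two-sided test over signs, p = 0.50). Neutrophil markers were in most cases highest in mouse 4. Of 18 markers, 13 were lowest in mouse 6 and 14 highest in mouse 4, and 15 were testable. Of these, 11 were called higher in mouse 4 than in mouse 6 and 0 lower, against 20.6% and 18.3% of all genes. Between mice 5 and 6 the calls were 5 higher and 3 lower, near the 21.5% and 20.8% of all genes, and the list median was 5.53 and 5.58 CPM. The list summed to 494, 374 and 368 CPM. Of these sums the granule gene Ltf alone made 99.8, 43.5 and 88.0 CPM, so the nearness of mice 5 and 6 depends on it.

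Individual neutrophil genes did not all share the profile of Cxcr2. Csf3r, the receptor of granulocyte colony-stimulating factor, had 117, 79.8 and 79.3 CPM, level between mice 5 and 6. Ltf, the granule protein lactoferrin, had 99.8, 43.5 and 88.0 CPM and Mcemp1 85.4, 66.6 and 76.4, both lowest in mouse 5 (Ltf 2.02-fold below mouse 6, exact binomial test, adjusted p = 8.81e-114). The granule genes Camp and Ngp, picked after their values were seen, had 1.25, 0.774 and 0.725 and 1.46, 0.802 and 0.662 CPM. They were far lower than Ltf and were not lowest in mouse 5. Whether Ltf came from neutrophils was not tested. S100a8, a calcium-binding protein of neutrophil cytosol, had 70.5, 67.4 and 42.6 CPM, level between mice 4 and 5 (adjusted p = 0.175) and lower in mouse 6. Mmp8, neutrophil collagenase, picked after its values were seen, had 10.4, 7.74 and 5.99 CPM, in the same order as Cxcr2. It was not alone in this. Of the 18 markers, 4 were highest and 4 others lowest in mouse 5, and the rest had this order in CPM, some narrowly. Ly6g, the surface protein used to define mouse neutrophils, had only 4, 10 and 4 counts, and the primary granule genes Mpo and Elane 6, 5 and 4 and 5, 1 and 1. These 3 genes were the ones below the filter. The part of neutrophil content in the Cxcr2 difference was not tested.

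**Figure D5:**
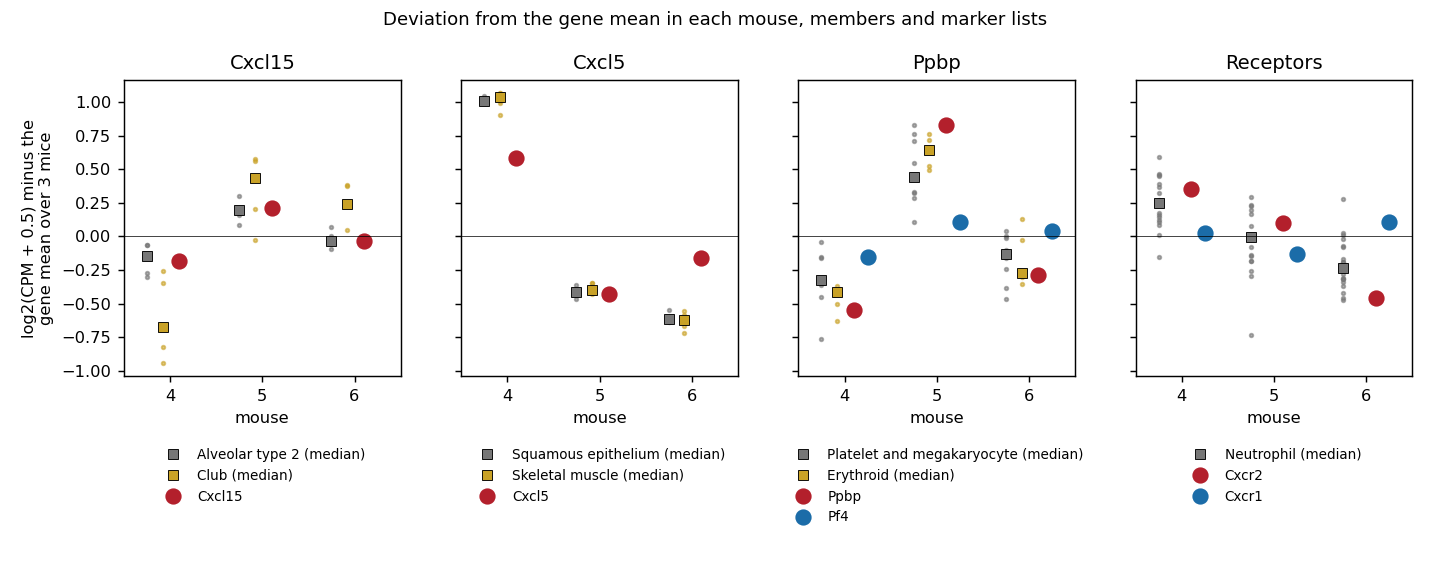
Deviation of log2(CPM + 0.5) from the mean of each gene over the 3 mice, for members (large circles), marker genes (small dots) and the median of each marker list (squares). Cxcl15 lies nearer the alveolar type 2 list than the club cell list, and ciliated and alveolar type 1 genes are not drawn. Cxcl5 is high in mouse 4 with squamous and muscle genes. Ppbp is high in mouse 5 with platelet and red cell genes while Pf4 is flatter, and Cxcr2, unlike Cxcr1, is lowest in mouse 6.

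Of the genes that drive or restrain these ligands, most that differed between mice 4 and 5 were higher in mouse 4. Nfkbia, an NF-kappaB inhibitor, Tnfrsf1a, the TNF receptor, the RNA decay factor Zfp36, which binds AU-rich elements, and the NF-kappaB subunit Rela stood at 277 ± 28.0, 173 ± 11.9, 167 ± 22.7 and 154 ± 9.89 CPM. Il1b and Tnf stood at 45.9 ± 4.47 and 37.1 ± 8.84 CPM and Csf2 at 9.29 ± 0.906. Il17a had 21, 6 and 18 counts, Il17f 10, 6 and 8, and Csf3, the neutrophil growth factor, 9, 3 and 11. Of 22 genes 19 were testable. Between mice 4 and 5, 12 were called higher in mouse 4 and 2 lower, with a median log2 difference of 0.23 against 0.00 over all genes. Between mice 5 and 6, 1 was higher and 11 lower in mouse 5. Tnf was 1.59-fold higher in mouse 4 than in mouse 5 (adjusted p = 4.79e-32).

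The 16 signalling genes below Cxcr2 were all above 1 CPM, with the G protein subunit Gnai2 at 789 ± 84.3 CPM, Lasp1 at 305 ± 15.7, the receptor kinase Grk2 at 248 ± 34.2 and Rac2 at 231 ± 49.2. In mouse 5, 14 of 16 were lower than in mouse 4 and 12 of 16 lower than in mouse 6, so this list was low in mouse 5 where Cxcr2 was intermediate. Of other receptors that guide neutrophils, Cxcr4 stood at 70.3 ± 14.5, Fpr2 at 94.2 ± 27.8, Ptafr at 12.4 ± 2.07 and Ccr1 at 10.9 ± 1.77 CPM per kilobase of annotated exon, above Cxcr2 (2.85) in their means. They also serve other leukocytes. Ltb4r1, of the same list and picked after its value was seen, stood at 2.31 ± 0.198, below Cxcr2. Of these 7 receptors, 5 were called higher in mouse 4 than in mouse 5 and 5 higher and 1 lower than in mouse 6. Atypical receptors, which bind chemokines without G protein signalling, included Ackr3 at 30.3 ± 3.23 and Ackr2 at 24.2 ± 2.88 CPM. Ackr4 and Ackr1, the Duffy receptor that binds several of these ligands, had 3.39 ± 1.40 and 3.01 ± 0.854 CPM. Between mice 4 and 5, 1 of the 4 was higher in mouse 4 and 2 lower.

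Several CXC chemokines that act on other cells had higher mean levels than every member except Cxcl15. Cxcl9, induced by interferon-gamma, stood at 233 ± 57.0 CPM per kilobase of annotated exon, Cxcl16 at 169 ± 34.9, Cxcl12 at 25.7 ± 1.43 and Cxcl10 at 65.0 ± 19.2, beside 9.81 ± 3.88 for Cxcl5. Of 9 such genes, 7 were called higher in mouse 4 than in mouse 5, and 7 lower in mouse 5 than in mouse 6. The median log2 difference of mouse 4 from mouse 5 was 0.52 for these genes and 0.23 for the 8 members, and 0.00 over all tested genes.

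Genes with like profiles were sought for 5 members, and Ppbp, Cxcl3 and Cxcr1 were not compared in this way. Likeness was the largest gap between centred log2(CPM + 0.5) values over the 3 mice, among 15200 genes at 1 CPM or more in each. For Cxcl1, 1397 genes (9.19%) lay within 0.1, nearest Shisa5, Fam189b and Muc4, and for Cxcl15 1168 (7.68%), nearest Gnal, Gm44950 and Zfp945. For Cxcl2 there were 306 (2.01%), nearest Olr1, Pkm and Glipr1. For Cxcl5 there were 44 (0.289%), nearest Asb11 at 7.71, 3.48 and 4.38 CPM in mice 4, 5 and 6, then Serpinb5 and Phkg1. For Cxcr2 there were 17 (0.112%), nearest F13a1 at 29.0, 25.1 and 16.4 CPM, then Sox6 and Them5.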

How the data were processed

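Each of 3 mice gave 1 lung library. Per the labels' protocols, a Direct-zol kit served for RNA and a Nugen mRNA kit for sequencing libraries. As tools, STAR 2.5.2a, Trim Galore 0.6.2 and bcl2fastq 2.17, with build mm10, are listed in the submitters' processing notes. How reads were counted, with which annotation and strand setting, is not given in the sources used here. The authors deposited unnormalised counts by Ensembl identifier, with totals of 43845715, 35674761 and 31579465 in mice 4, 5 and 6, where a single count is worth 0.0232, 0.0277 and 0.0315 CPM. GENCODE M21, of the same build, matched 53237 of 53342 identifiers. Promoter sequences are RefSeq's (GRCm38.p6), which held 7 of the 8 members.

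TMM factors were 0.983, 1.014 and 1.004. Spread was tested in edgeR 4.0.16 (R 4.3.3, filterByExpr, intercept-only design, older quasi-likelihood fit, robust), and library pairs with an exact binomial test (scipy 1.17.1, 2 times the smaller tail), both with Benjamini-Hochberg adjustment over all tested genes and a threshold of 0.05. Both tests were tried on simulated data that were simpler than these. Apart from genes shifted on purpose, every gene lay on the trend for the spread test, and counts had Poisson error only for the pair test. DESeq2 1.42.0 was an alternative. The members and 20 marker and pathway lists were chosen with earlier results of these data known. Named genes are all members, up to 4 genes of each list by mean CPM, the 3 nearest genes in likeness and a short set by name (Pf4, Ackr1, Il17a, Il17f, Csf3, Csf2, Il1b, Tnf, Ly6g, Mpo, Elane, Itga2b). Mmp8, Camp, Ngp and Ltb4r1 were added after their values were seen. Alternatives were other scalings, no filter, DESeq2, each mouse left out, a fold minimum, other pseudocounts and coding transcript lengths. P-values measure the spread between these 3 mice or the counting error of 2 libraries.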

Additional observations from a re-analysis of the deposited data

How the results depend on the processing

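The members' calls kept their direction under every alternative run. Without the filter on low counts, edgeR's test of spread called 2 members, Ppbp (adjusted p = 0.000257) and Cxcl5 (adjusted p = 0.00298), among 629 of 30751 genes (2.05%), where the filtered test called 0. The unfiltered run gave infinite weight to the trend. Leaving out each mouse called 0 members in each case. Requiring a 1.5-fold difference as well left 3, 2 and 2 members between mice 4 and 5, 4 and 6, and 5 and 6, in place of 6, 4 and 5. With library totals in place of TMM factors, Cxcr2 between mice 4 and 5 lost its call (log2 difference 0.22, adjusted p = 0.0682) and Ppbp between mice 4 and 6 gained one (−0.31, adjusted p = 0.0468). Neighbours in the order of levels that kept their direction numbered 3, 2 with coding transcript lengths, 4 in CPM and 4 to 5 when 1 mouse was left out, where fewer mice need share a direction. Without mouse 4, which gave 5, Ppbp came before Cxcl5. The Cxcl15 share was 91.1% with coding transcript lengths in place of 93.7%. Pseudocounts of 0.1 and 1 gave log2 levels of 3.44 and 3.56 for Cxcl3 (3.49 with 0.5) and of 1.52 and 1.92 for Cxcr1 (1.71). No paired analysis was possible because all samples belong to 1 group. Depth limits Cxcr1, at 90 to 122 counts, and leaves Ly6g, Mpo, Elane, Il17a, Il17f and Csf3 too low to test. With 3 mice no sign-flip test could pass.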

Other observations

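Marker lists give further context on the lungs that these levels come from. Of these, the ciliated and alveolar type 1 lists were set beside Cxcl15 above, and the alveolar macrophage list beside Cxcl2. Ciliated cell markers, with the highest CPM in Tppp3 at 332 ± 51.6 CPM (SD, n = 3), had 6 of 6 genes called lower in mouse 4 in both of its pairs. Endothelial markers, with the highest CPM in Pecam1 at 458 ± 75.7 CPM, had 4 of 4 called higher in mouse 5 than in mice 4 and 6. Alveolar type 1 markers had their highest CPM in Ager at 1969.5 ± 392 CPM, with 5 of 5 higher in mouse 5 than in mouse 6. Fibroblast, alveolar macrophage and NK cell markers had their highest CPM in Inmt (624 ± 306 CPM), Chil3 (394 ± 39.0) and Gzma (41.5 ± 5.88), with list medians in turn of 490.5 ± 28.4, 41.9 ± 13.1 and 9.33 ± 1.15 CPM. In the mast cell list, 2 of 5 genes passed the filter, Kit, which many cells make, at 117 ± 16.6 and the chymase Cma1 at 1.76 ± 0.241 CPM.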
